A study of Mus musculus with 53 samples.

Results

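This account concerns the genes that break down amino acids and make urea in the liver, chosen by name as a list of 37 enzymes in 9 pathway groups: the urea cycle, tyrosine, tryptophan, histidine, methionine with transsulfuration, glycine with serine and glyoxylate, glutamine with aspartate and proline, lysine with branched chain amino acids, and pyrimidine degradation. A gene was measured here if a probe annotated with its symbol had a detection p-value under 0.05 on at least 5 liver arrays, and it was then represented by the brightest such probe. Named probes were found for 33 of the 37 genes and 31 were measured, of 11567 genes measured in liver. Sds, Sdsl, Gls2 and Got1 had no named probe in the annotation used and were not analysed here. Tat and Dpys each had 1 probe that was detected on 0 of 38 liver arrays.

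Hepatocytes are the main site at which surplus amino acids are degraded. Their nitrogen leaves as ammonia or aspartate and is joined to bicarbonate and ornithine in the urea cycle, which begins in mitochondria with N-acetylglutamate synthase, carbamoyl phosphate synthetase and ornithine transcarbamylase and ends in the cytosol with the release of urea by arginase. The carbon skeletons pass through pathways that are largely particular to the liver, and several of these enzymes are arranged in zones along the liver lobule.

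Transcripts of the liver were measured on Illumina mouse bead arrays, with a mixed B6-129Sv background throughout. The p53 f/f tumors carried floxed alleles of both Mad2 (gene Mad2l1, a spindle checkpoint component) and p53, together with a Cre transgene under the albumin promoter (Mad2f/f p53f/f Alb-Cre+), and 20 of them from 15 mice had a signal. The p53 f/+ tumors differed in having a single floxed p53 allele (Mad2f/f p53f/+ Alb-Cre+), and there were 8 from 5 mice. The reference was 10 livers labelled healthy, from mice labelled wild type, so the tumors differ from them in genotype as well as in being tumors. The labels give no ages, and they name adenomas and carcinomas of the liver among the diseases without saying which tumor was which. Albumin-driven Cre acts in hepatocytes, and the tumor pieces also held other cells and surrounding tissue. In such bulk samples fewer cells of a type and less RNA per cell cannot be told apart.

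The share of probes detected on an array ranged from 34.3 to 39.3% in p53 f/f tumors, 28.3 to 37.5% in p53 f/+ tumors and 30.6 to 38.9% in healthy livers. Mad2l1 had a log2 intensity of 5.70 to 9.15 in tumors (median 7.39) and 4.80 to 7.42 in healthy livers (median 6.70), a difference of 0.69 (limma, adjusted p = 0.0603), so a lower level was not seen in the tumors. It was higher in p53 f/f than in p53 f/+ tumors by 1.45 (adjusted p = 0.0309). Where its probes lie relative to the deleted part was not established, and p53 itself had no named probe. Of 13 hepatocyte markers listed, 12 were measured. The Alb probe was detected on 0 of 10 healthy livers and 7 of 28 tumors. Ttr, Apoa1, Fga, Trf and the other measured markers were detected on at least 9 healthy livers.

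A pair of arrays stood apart. On the array labelled healthy liver 1, the 31 genes had a mean log2 difference of -3.42 from healthy livers 2 to 10, 24 of the 31 were below every one of those livers, and the 12 hepatocyte markers averaged 10.76 against 12.24 to 13.12. In p53 f/+ tumor 13 the same mean difference was -4.00, with hepatocyte markers at 11.55, the lowest of the tumors. It was also the weakest liver array, with 28.28% of probes detected and a 95th percentile of intensity of 428.1, against at least 829.6 on the others, and the part of this in its low values was not tested. Healthy liver 1 had 38.88% of probes detected, the most of the healthy livers. The main counts and the differences of the called genes of the list are therefore given with all 10 healthy livers and again without healthy liver 1. In healthy liver 5 the genes went both ways: it had the lowest value of healthy livers 2 to 10 for 11 of the 31 genes and the highest of all livers for 12. Of 15 genes with several measured probes, 7 had probes that differed by more than 2 log2 units in their distance from the other livers in this one, Gnmt for example with probes at -5.70, -3.92 and 1.61.

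Many genes of amino acid catabolism were lower in the liver tumors. Of the 31 genes, 13 were lower than in healthy liver at an adjusted p under 0.05 and 0 were higher, a share of 41.9% against 14.2% of all 11567 genes called lower (higher: 14.7%). The estimated difference was negative for 29 of the 31, and its median was -0.81 on the log2 scale, against -0.008 over all genes. Without healthy liver 1, 22 of the 31 were lower and 0 higher, among them all 13 of the first count, a share of 71.0% against 18.8% of all genes, and the median was -1.10. Of the arrays with a probe signal, tumors and healthy livers shared only 1 bead chip. With chip as a term in the fit, 0 of the 31 genes were called and the median difference was 1.11, or -0.08 without healthy liver 1, so the calls below rest on differences between chips.

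**Figure D1:**
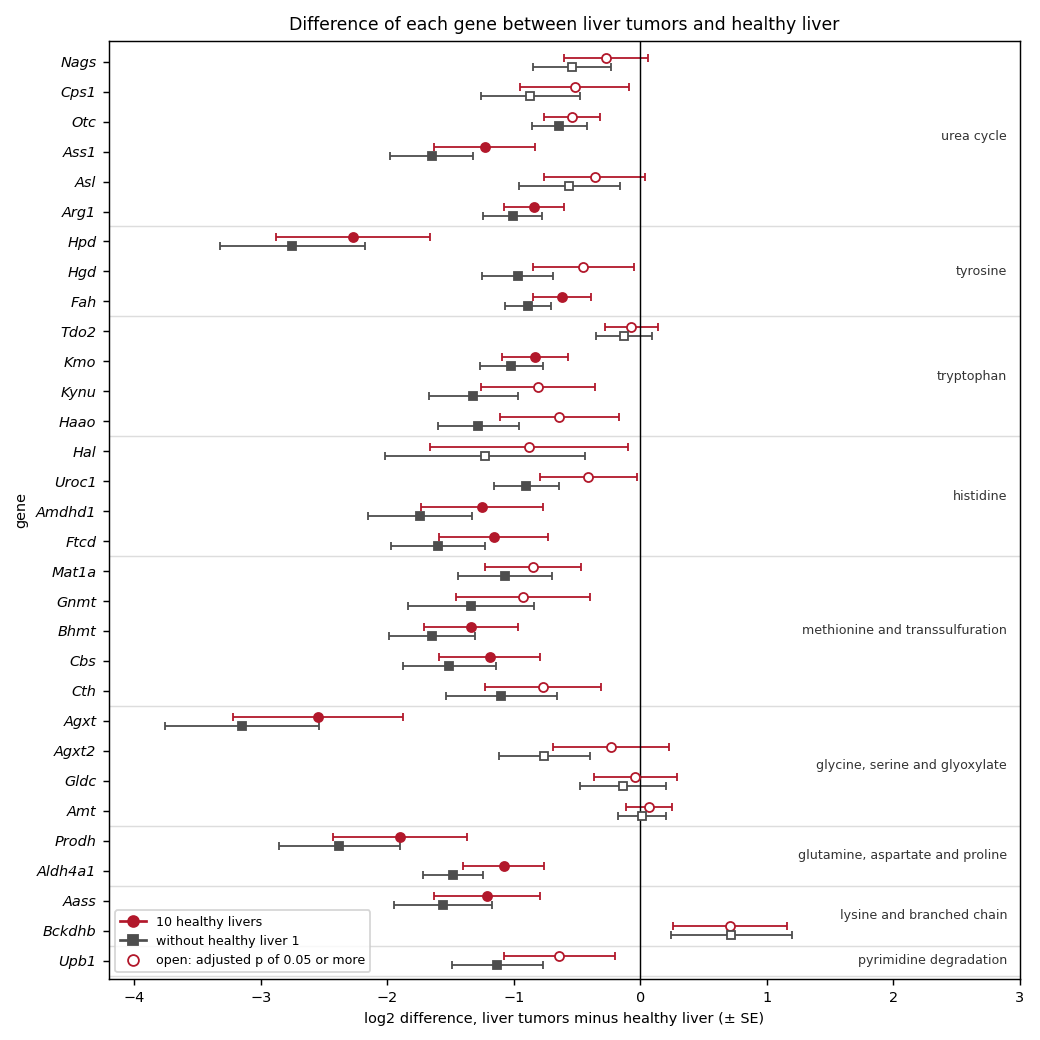
Log2 difference of each of the 31 genes between liver tumors and healthy liver (x axis, with bars of 1 SE), by pathway from top to bottom, with all 10 healthy livers (red circles) and without healthy liver 1 (grey squares). Filled symbols passed an adjusted p of 0.05: 13 genes with all livers and 22 without healthy liver 1, all to the left of 0.

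In the urea cycle, 2 of 6 genes were lower in tumors, the cytosolic enzymes Ass1 and Arg1. Ass1, argininosuccinate synthetase, brings in aspartate as the second nitrogen. Its log2 intensity had a lowest, median and highest value of 11.52, 12.92 and 14.04 in p53 f/f tumors and 9.92, 13.95 and 14.67 in p53 f/+ tumors, against 10.51, 14.70 and 15.30 in healthy livers. The low value among the healthy livers is healthy liver 1, and 22 of 28 tumors were below the lowest of the other 9. The difference was -1.23 ± 0.40 (SE), or 2.35-fold lower, with an adjusted p of 0.0174 in limma, and -1.65 without healthy liver 1. Arg1, the arginase that releases urea, was at 11.65, 12.79 and 13.86 in p53 f/f tumors and 11.96, 13.29 and 14.25 in p53 f/+ tumors, against 12.13, 13.82 and 14.62 in healthy livers. Its difference was -0.84 ± 0.24 (adjusted p = 0.00729), or -1.01 without healthy liver 1, and again 22 of 28 tumors were below healthy livers 2 to 10.

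The mitochondrial enzymes of the cycle, and Asl, did not pass the test. Cps1, which makes carbamoyl phosphate, had medians of 13.24 in p53 f/f tumors and 13.69 in p53 f/+ tumors against 14.62 in healthy livers. All 28 tumors were below the median of the healthy livers for Cps1, but healthy livers 1 and 5 were at 10.55 and 10.48, and the difference was -0.52 ± 0.43 (adjusted p = 0.38), or -0.87 without healthy liver 1 (adjusted p = 0.0769). Nags, which makes the activator of Cps1, differed by -0.27, and Asl, argininosuccinate lyase, by -0.36. Healthy liver 5 was the lowest liver for both, at 5.16 and 7.52. Leaving out healthy livers 1 and 5 together, a choice made after seeing the data, brought Nags, Cps1 and Asl past the threshold (adjusted p = 0.0004, 0.00159 and 0.0195). Otc, the X-linked ornithine transcarbamylase, was dim: it was detected on 8 of 20 p53 f/f tumors, on 0 of 8 p53 f/+ tumors and on 6 of 10 healthy livers. It was at least 1.29-fold lower in p53 f/+ tumors than in healthy livers. The limma difference, without that limit, was -0.93 (adjusted p = 0.0244). The healthy livers on chip H, which held no tumor, averaged 6.44 for Otc. Those on chip G averaged 5.07 and the one on chip I was at 5.31, against 4.88 in the p53 f/+ tumors on chip G.

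Around the cycle, 4 of 7 measured partner genes for ammonia, ornithine and aspartate handling were lower in tumors and 0 were higher. Without healthy liver 1, 6 of 7 were lower. The shares of all genes called lower were 14.2% and 18.8%. Slc38a3, a glutamine transporter of hepatocytes, was at 7.61 to 12.26 in tumors (median 10.89) and at 7.30 to 13.33 in healthy livers (median 13.06), with a difference of -1.79 (adjusted p = 0.00296). Rhbg, an ammonium channel of the hepatocytes near the central vein, differed by -1.95 (adjusted p = 0.000163) and Aqp9, a channel for urea and glycerol, by -1.37 (adjusted p = 0.0256). Glul, glutamine synthetase, was called lower by 0.48, but its probe was detected on only 3 of 28 tumors and 4 of 10 healthy livers. Arg2, the mitochondrial arginase, did not reach the detection minimum.

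Tyrosine catabolism had 2 of 3 measured genes lower. Hpd, which oxidises 4-hydroxyphenylpyruvate to homogentisate, was at 8.23, 10.77 and 12.70 (lowest, median and highest) in p53 f/f tumors and at 4.93, 11.75 and 13.25 in p53 f/+ tumors, against 8.74, 13.61 and 14.51 in healthy livers. All 28 tumors were below the healthy median and 26 were below all of healthy livers 2 to 10, which began at 12.75. The difference was -2.27 ± 0.61, or 4.81-fold lower (adjusted p = 0.00461), and -2.75 without healthy liver 1. Fah, which makes the last cut of the pathway, differed by -0.62 (adjusted p = 0.0445), or -0.89 without healthy liver 1, with 25 tumors below healthy livers 2 to 10. Hgd, homogentisate dioxygenase, stands between them and differed by -0.45 (adjusted p = 0.41) with all healthy livers. Healthy liver 1 had 8.79 for Hgd while the other livers had 13.70 to 14.18, and without it the difference was -0.97 (adjusted p = 0.00537).

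In the kynurenine route of tryptophan, 1 of 4 genes was lower with all livers and 3 of 4 without healthy liver 1. Kmo, kynurenine monooxygenase, had medians of 5.72 in p53 f/f tumors and 5.29 in p53 f/+ tumors against 6.73 in healthy livers, and its probe was detected on 15 of 28 tumors and 9 of 10 livers. The difference was -0.83 ± 0.26 (adjusted p = 0.0154), or -1.02 without healthy liver 1. Kynu, kynureninase, and Haao, which forms the precursor of quinolinate, differed by -0.81 and -0.64 and were not called. For Haao, 27 of 28 tumors were below healthy livers 2 to 10 (13.26 to 14.45), and healthy liver 1, at 7.34, was below all 28 tumors. Without it the differences were -1.32 (adjusted p = 0.00312) for Kynu and -1.28 (adjusted p = 0.00149) for Haao. Tdo2, the first enzyme of the route, was detected on only 10 of 28 tumors and 2 of 10 livers, and differed by -0.07.

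In histidine catabolism, Amdhd1 and Ftcd were lower. Amdhd1, imidazolonepropionase, was at 8.28, 9.20 and 11.49 in p53 f/f tumors and 7.11, 10.60 and 11.38 in p53 f/+ tumors, against 6.42, 11.36 and 12.33 in healthy livers. Its difference was -1.25 ± 0.48 (adjusted p = 0.0456), or -1.74 without healthy liver 1, and 20 tumors were below healthy livers 2 to 10. Ftcd, which passes the one-carbon unit of histidine to folate, differed by -1.16 ± 0.43 (adjusted p = 0.0417), or -1.60 without healthy liver 1, with 27 of 28 tumors below healthy livers 2 to 10. Uroc1, urocanate hydratase, differed by -0.41 (adjusted p = 0.438), or -0.90 without healthy liver 1 (adjusted p = 0.00529).

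Hal, histidine ammonia lyase, which opens the pathway, had the largest SD of the 31 genes over all 28 tumors (2.33) and over healthy livers 2 to 10 (2.03). It was at 5.06, 8.56 and 11.84 in p53 f/f tumors and 5.70, 10.89 and 11.81 in p53 f/+ tumors, against 6.26, 8.69 and 13.07 in healthy livers. The 3 groups overlapped almost entirely, 9 of 28 tumors lay below healthy livers 2 to 10 and 13 lay below the healthy median. The difference was -0.88 ± 0.78 and did not pass (adjusted p = 0.417). A second, dimmer Hal probe gave -2.08 (limma, adjusted p = 0.000162 over the kept probes with 1 gene symbol). The probes of this gene thus disagreed on the call though not on the direction.

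**Figure D2:**
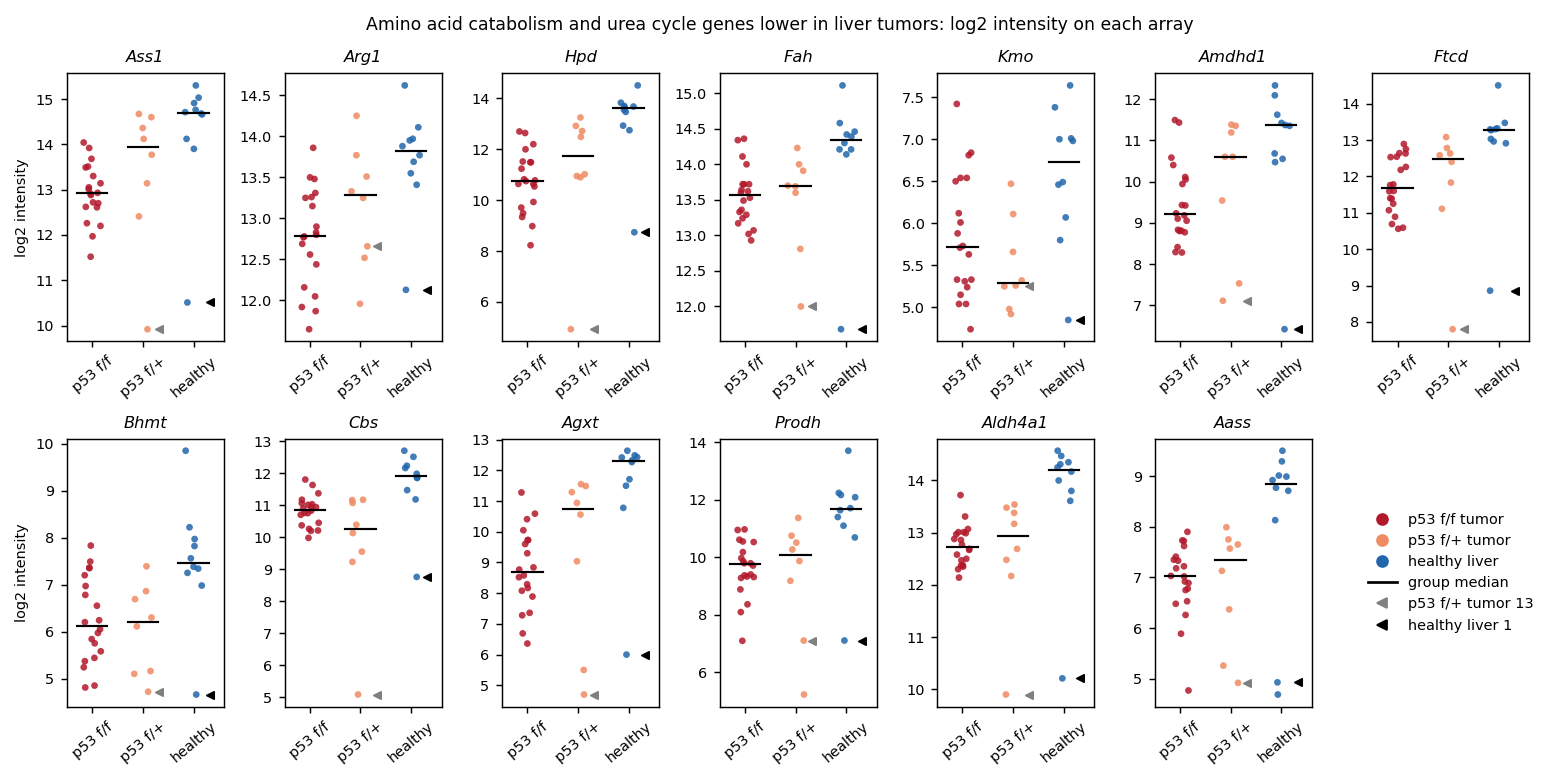
Log2 intensity (y axis) of the 13 genes called lower in liver tumors, with a point for each of 20 p53 f/f tumors, 8 p53 f/+ tumors and 10 healthy livers and a line at each group median. Arrowheads mark p53 f/+ tumor 13 and healthy liver 1, which lie at or near the bottom of their groups in most panels, and for Hpd 26 of 28 tumors are below healthy livers 2 to 10.

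In the methionine cycle and transsulfuration, 2 of 5 genes were lower with all livers and 5 of 5 without healthy liver 1. Bhmt, which remethylates homocysteine with betaine, was at 4.81, 6.12 and 7.83 in p53 f/f tumors and 4.72, 6.20 and 7.39 in p53 f/+ tumors, against 4.66, 7.47 and 9.85 in healthy livers. The highest liver was healthy liver 5 and the lowest was healthy liver 1, and 22 tumors were below healthy livers 2 to 10. The difference was -1.34 ± 0.37, or 2.52-fold lower (adjusted p = 0.0064), and -1.65 without healthy liver 1. Cbs, cystathionine beta synthase, was at 9.98, 10.87 and 11.80 in p53 f/f tumors and 5.09, 10.26 and 11.17 in p53 f/+ tumors, against 8.76, 11.92 and 12.70 in healthy livers. Its difference was -1.19 ± 0.40 (adjusted p = 0.023), or -1.51 without healthy liver 1, with 25 tumors below healthy livers 2 to 10, and a second probe gave -1.20.

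Mat1a, which makes S-adenosylmethionine in adult liver, Gnmt, which consumes it with glycine, and Cth, which cleaves cystathionine to cysteine, differed by -0.85, -0.93 and -0.77 and were not called. Without healthy liver 1 they differed by -1.07, -1.34 and -1.10 (adjusted p = 0.022, 0.0312 and 0.0448). The Mat1a and Gnmt probes lay within 1 log2 unit of the brightest value of the array on 7 and 8 of 10 healthy livers, where differences can be compressed. The 3 Gnmt probes differed between -1.71 and -0.93. The first of these, the dimmest probe, passed the test (limma, adjusted p = 0.0105 over the kept probes with 1 gene symbol).

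The largest change of the 31 genes was that of Agxt, alanine glyoxylate aminotransferase, the peroxisomal or mitochondrial enzyme that detoxifies glyoxylate. It was at 6.36, 8.67 and 11.28 in p53 f/f tumors and 4.70, 10.75 and 11.55 in p53 f/+ tumors, against 6.00, 12.30 and 12.64 in healthy livers. All 28 tumors were below the healthy median and 23 were below healthy livers 2 to 10, whose lowest was 10.78. The difference was -2.55 ± 0.67, or 5.85-fold lower (adjusted p = 0.0042), and -3.15 ± 0.61 without healthy liver 1. Within the p53 f/f tumors Agxt ranged over nearly 5 log2 units, the lowest in tumor 24 and the highest in tumor 20.

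The other glycine and serine genes were not called. Gldc and Amt, the P and T proteins of the glycine cleavage system, differed by -0.04 ± 0.33 (adjusted p = 0.943) and 0.07 ± 0.18 (adjusted p = 0.81). Gldc was bright, with medians of 13.13 in p53 f/f tumors and 13.28 in p53 f/+ tumors against 13.13 in healthy livers, and outside p53 f/+ tumor 13 (7.80) no tumor was below 12.53, the lowest of healthy livers 2 to 10. Amt was near background, detected on 13 of 28 tumors and 3 of 10 livers. Agxt2, a mitochondrial aminotransferase, differed by -0.23 (adjusted p = 0.742), with 3 probes between -0.44 and -0.23.

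Both measured genes of proline breakdown were lower. Prodh, proline dehydrogenase, was at 7.09, 9.75 and 10.97 in p53 f/f tumors and 5.22, 10.07 and 11.37 in p53 f/+ tumors, against 7.10, 11.67 and 13.71 in healthy livers. All 28 tumors were below the healthy median and 24 below healthy livers 2 to 10, and the difference was -1.90 ± 0.53, or 3.74-fold lower (adjusted p = 0.0067), and -2.38 without healthy liver 1. Aldh4a1, which takes the product on to glutamate, was at 12.14, 12.73 and 13.72 in p53 f/f tumors and 9.90, 12.93 and 13.54 in p53 f/+ tumors, against 10.21, 14.21 and 14.57 in healthy livers. For Aldh4a1, 27 of 28 tumors were below healthy livers 2 to 10, and its difference was -1.08 ± 0.32 (adjusted p = 0.00995), or -1.48 without healthy liver 1.

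Oat, ornithine aminotransferase, feeds the same intermediate from ornithine and belongs to a wider list of 54 catabolic genes. It was at 7.74 to 14.44 in tumors (median 10.06) and 11.96 to 15.16 in healthy livers (median 14.74), a difference of -3.66 ± 0.61 (adjusted p = 2.43e-05). Of the 45 genes of the wider list that were measured, 21 were lower in tumors and 0 higher, with a median difference of -0.64. Over all genes, 14.2% were called lower and 14.7% higher. Without healthy liver 1, 32 of the 45 were lower, against 18.8% of all genes. Suox, the mitochondrial sulfite oxidase at the end of cysteine breakdown, differed by -1.57 (adjusted p = 0.00646). Auh, a hydratase of leucine breakdown, differed by -1.28 (adjusted p = 0.00155).

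Among the remaining pathways, Aass, the first enzyme of lysine degradation, was lower. It was at 4.77, 7.03 and 7.90 in p53 f/f tumors and 4.92, 7.35 and 7.99 in p53 f/+ tumors, against 4.69, 8.85 and 9.50 in healthy livers. All 28 tumors were below the healthy median, and the only livers under 8 were healthy livers 1 and 5, at 4.93 and 4.69. The difference was -1.21 ± 0.42 (adjusted p = 0.0283), or -1.56 without healthy liver 1. Upb1, the last enzyme of uracil and thymine breakdown, differed by -0.64 (adjusted p = 0.281), or -1.13 without healthy liver 1 (adjusted p = 0.0119), and its 3 probes lay between -0.80 and -0.64.

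Bckdhb, a subunit of the branched chain keto acid dehydrogenase, had the only positive difference above 0.1, at 0.71 ± 0.45 (adjusted p = 0.246). It was at 4.62, 7.09 and 9.13 in p53 f/f tumors and 4.85, 5.37 and 8.00 in p53 f/+ tumors, against 4.61, 5.70 and 7.97 in healthy livers, and was detected on 17 of 28 tumors. The p53 f/f tumors on chips B to D averaged 7.74 and those on chips E and F averaged 5.94. Otc was likewise brighter in p53 f/f tumors on chips B to D (mean 5.83) than on chips E and F (5.20). For Tdo2 those means were 5.92 and 5.09, but only chip C stood out. Its p53 f/f tumors averaged 6.46, against 5.25 on chip B, 5.30 on D, 5.03 on E and 5.13 on F. The part of the chip in these values was not tested.

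**Figure D3:**
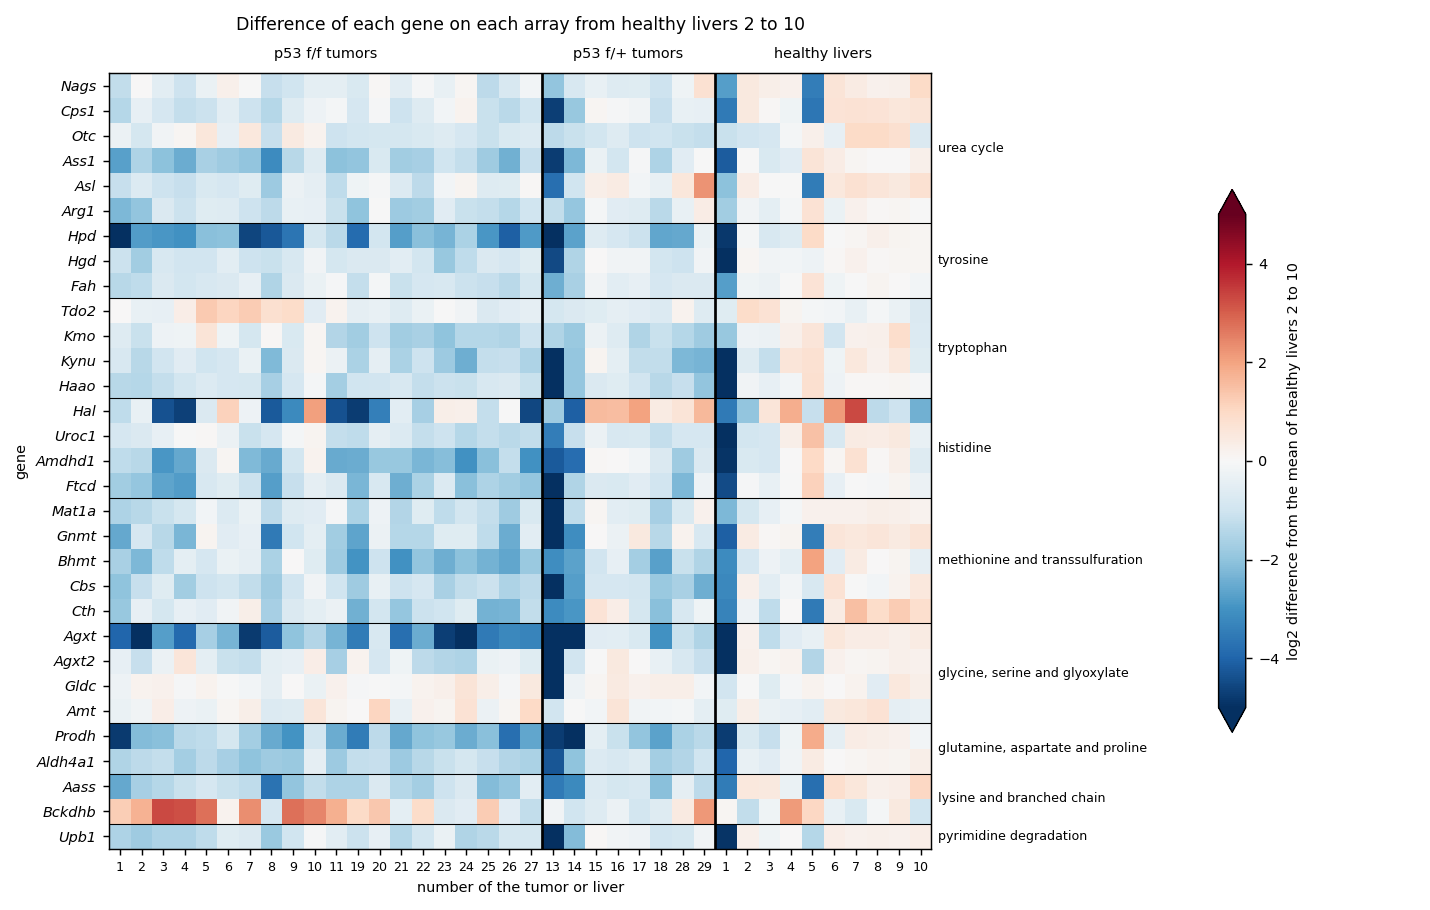
Log2 difference of each of the 31 genes (rows, by pathway) from its mean in healthy livers 2 to 10 on each array (columns, p53 f/f tumors, p53 f/+ tumors and healthy livers), with blue for lower and red for higher and the scale ending at 5 log2 units either way. Columns of p53 f/+ tumor 13 and healthy liver 1 are blue in most rows, Gldc is near white in the other tumors, and Hal and Bckdhb go both ways.

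Genes that make amino acids were set beside the catabolic ones. Of 20 listed synthesis genes and extrahepatic isozymes 10 were measured. In tumors 4 of these were higher and 1 lower, against 14.7% and 14.2% of all genes. Without healthy liver 1, 5 were higher and 2 lower, against 19.4% and 18.8% of all genes. In p53 f/f tumors 5 were higher and 1 lower, against 15% and 14.1% of all genes. In p53 f/+ tumors 0 were called, against 7.65% higher and 5.04% lower of all genes. Without healthy liver 1, 3 were higher and 1 lower in p53 f/+ tumors, against 13.3% and 11.4%. Between the genotypes 0 of the 10 were called. Psat1, of serine synthesis, was at 5.75 to 12.26 in tumors (median 10.09) and 4.73 to 9.71 in healthy livers (median 5.05), and was higher by 3.66 ± 0.62 (adjusted p = 3.21e-05). Asns, asparagine synthetase, was higher by 2.55 (adjusted p = 0.00138) and Mthfd2, a mitochondrial folate enzyme, by 2.33 (adjusted p = 0.000169). The remaining genes called over all tumors were named after their values were seen. They were Aldh18a1, which starts proline synthesis from glutamate (1.61, limma, adjusted p = 0.00268), and Shmt2, which interconverts serine and glycine in mitochondria (-1.09, adjusted p = 0.0171). Healthy liver 1 had the highest value of all healthy livers for Psat1, Asns, Mthfd2 and Aldh18a1, at 9.71, 9.71, 10.06 and 9.87. Mat2a had no named probe in the annotation used.

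Among 10 measured regulators of these genes, 2 were lower in tumors and 0 higher, a share of the order of the 14.2% of all genes called lower. Without healthy liver 1, 6 of the 10 were lower, against 18.8% of all genes. Nr1h4, the bile acid receptor FXR, differed by -1.11 (adjusted p = 0.00211) and Foxa1, a forkhead factor of hepatocytes, by -0.89 (adjusted p = 0.031).

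The promoters of the measured genes were read for the letters of liver factor sites. Promoter sequence (RefSeq, GRCm38.p6, 250 bases before to 50 after the start) was at hand for 25 of the 31 genes. The letters CAAAGNNCA, a core of sites for HNF4, were searched on both strands and found in 6 of the 25 (24.0%), against 7.27% of 27025 genes. Of these 6, Kmo, Ftcd, Bhmt and Agxt were lower in tumors, while Haao and Agxt2 were not called. TTGCNNAA, for C/EBP factors, was in 16.0% of the 25 and 12.2% of all genes, and TATAAA in 20.0% and 15.7%. TGACGTCA, for CREB, was in 0 of the 25 and in 2.03% of all genes. Of the longer consensus sites, that of HNF1 was in 0 of the 25 (0.137% of all genes) and that of the glucocorticoid receptor in 1, Gnmt (0.537%). A match is a description of the letters and not of binding. The 200 bases before the start of the 4 called genes are shown because they carry the HNF4 letters, given in capitals, in the direction of the gene. They are chr1:175631993-175632192 (plus strand) for Kmo, chr10:76575448-76575647 (plus strand) for Ftcd, chr13:93637759-93637958 (minus strand) for Bhmt and chr1:93135040-93135239 (plus strand) for Agxt.
Kmo: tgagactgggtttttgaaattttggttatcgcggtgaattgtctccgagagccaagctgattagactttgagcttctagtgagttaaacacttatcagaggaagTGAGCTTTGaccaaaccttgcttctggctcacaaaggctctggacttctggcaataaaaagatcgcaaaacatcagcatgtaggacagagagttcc
Ftcd: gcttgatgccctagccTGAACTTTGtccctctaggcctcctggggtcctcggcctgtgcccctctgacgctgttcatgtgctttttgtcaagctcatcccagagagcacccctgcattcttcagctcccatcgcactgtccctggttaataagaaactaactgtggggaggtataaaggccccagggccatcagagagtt
Bhmt: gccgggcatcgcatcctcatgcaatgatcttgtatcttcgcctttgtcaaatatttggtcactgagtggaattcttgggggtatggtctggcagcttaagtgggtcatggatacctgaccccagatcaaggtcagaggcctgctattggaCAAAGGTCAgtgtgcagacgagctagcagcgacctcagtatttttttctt
Agxt: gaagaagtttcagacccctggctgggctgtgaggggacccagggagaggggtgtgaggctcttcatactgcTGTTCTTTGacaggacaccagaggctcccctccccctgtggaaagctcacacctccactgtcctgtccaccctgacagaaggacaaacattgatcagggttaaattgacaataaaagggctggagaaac

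Counted from the start of the gene, the first base of the match was at -50 in Bhmt, -96 in Kmo, -129 in Agxt and -184 in Ftcd. The 31 genes lay on 17 chromosomes, and chromosome 10 held the most, with 5 genes (Arg1, Hal, Amdhd1, Ftcd and Upb1), of which 3 were lower in tumors.

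Each tumor was described by the mean of the 31 genes relative to healthy livers 2 to 10. The mean ranged between -1.82 and -0.17 in p53 f/f tumors (median -1.13) and between -4.00 and -0.23 in p53 f/+ tumors (median -0.68), against -0.41 to 0.41 in healthy livers 2 to 10. Of 28 tumors, 25 were below the lowest of these livers, and p53 f/f tumor 10 and p53 f/+ tumors 15 and 16 were within their range. The number of genes below every one of healthy livers 2 to 10 ran from 4 in p53 f/f tumor 10 to 26 in p53 f/+ tumor 13, with a median of 15. No more than 2 genes were above all of these livers in any tumor.

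In 8 animals with 2 tumors, the gap between the means of the pair was 0.04 to 0.77 in 7 animals. In the remaining animal p53 f/+ tumors 14 and 15 were at -2.17 and -0.23, with 30 of 31 genes lower in tumor 14. Agxt was 5.50 in tumor 14 and 11.49 in tumor 15, Prodh 5.22 and 11.37, and Hal 5.70 and 11.37.

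The hepatocyte markers were set beside the catabolic genes as a check of the tissue. Their mean relative to healthy livers 2 to 10 was -0.46 to 0.37 in p53 f/f tumors (median -0.08) and -1.42 to 0.23 in p53 f/+ tumors (median -0.20), and in p53 f/+ tumor 14 it was -0.27. Of the 12 markers, 0 were called in either direction with all livers, with differences between -0.23 and 0.49. The 0.49 is that of the Alb probe, which was detected on 0 healthy livers and is part of the marker means. The highest of the other markers was Ahsg, at 0.37. Without healthy liver 1, 2 markers were lower, Ttr by 0.38 and Apoc3 by 0.59. Of the 12, 7 were within 1 log2 unit of the brightest value of the array on at least 5 healthy livers, where differences can be compressed. Markers of other cells went both ways, where 14.7% of all genes were called higher and 14.2% lower. In lists this short, 1 called gene is of the order of those shares. In tumors 5 of 10 macrophage markers, 4 of 8 neutrophil markers, 5 of 12 stellate cell and fibroblast markers and 3 of 11 endothelial markers were higher, and 1 of each of the last pair of lists was lower. Of the red cell precursor markers 2 of 5 were lower and 0 higher, of the T and NK cell markers 1 of 5 was lower (Zap70, -2.10), of the bile duct markers 1 of 4 was higher and 1 lower, and of 4 B and plasma cell markers 0 were called. The mean of the macrophage markers was 7.53 to 10.17 in p53 f/f tumors and 8.45 to 9.93 in p53 f/+ tumors, against 6.83 to 9.32 in healthy livers 2 to 10 and 9.07 in healthy liver 1. That of the fibroblast markers was 6.81 to 9.31 and 8.24 to 10.94 in the same tumor groups, against 7.28 to 8.03 and 8.58. The highest fibroblast and endothelial means, 10.94 and 9.62, were those of p53 f/+ tumor 13, and the part of other cells in the lower values of the 31 genes was not tested.

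**Figure D4:**
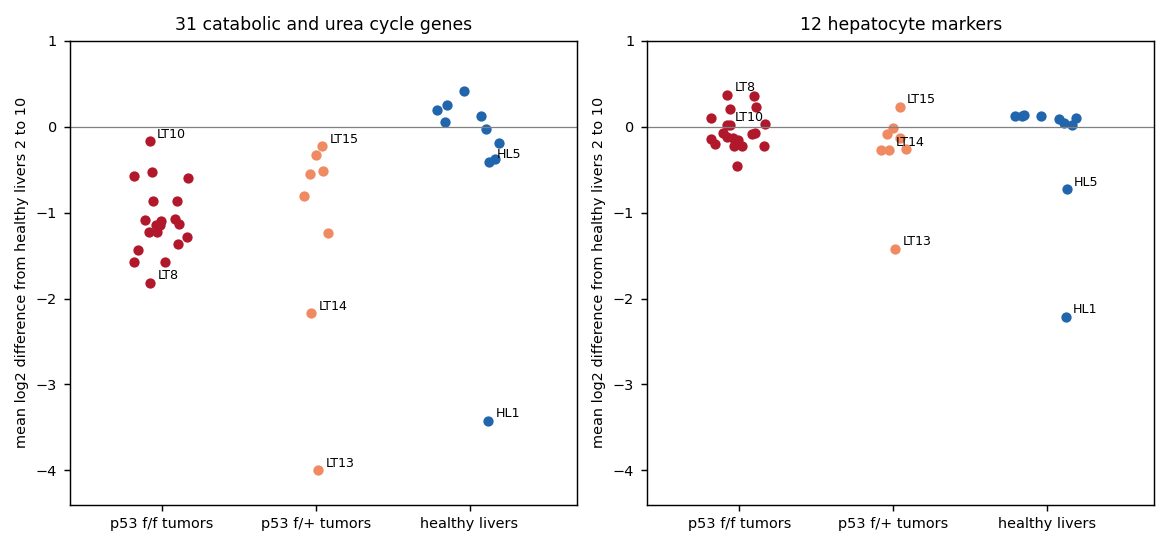
Mean log2 difference from healthy livers 2 to 10 (y axis) over the 31 genes (left) and over 12 hepatocyte markers (right), with a point for each p53 f/f tumor, p53 f/+ tumor and healthy liver and some tumors (LT) and healthy livers (HL) named by number. Over the 31 genes 25 of 28 tumors are below healthy livers 2 to 10, while the hepatocyte markers of the p53 f/f tumors lie between -0.46 and 0.37.

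By p53 genotype, 10 of the 31 genes were lower in p53 f/f tumors than in healthy liver, against 14.1% of all genes, and 6 were lower in p53 f/+ tumors, against 5.04%. In neither was a gene higher (15% and 7.65% of all genes). Both comparisons use the same healthy livers. Kmo, Bhmt, Prodh and Aldh4a1 were lower in both, at -0.73, -1.26, -1.80 and -1.02 in p53 f/f tumors and -1.07, -1.51, -2.15 and -1.24 in p53 f/+ tumors. Ass1, Arg1, Hpd, Amdhd1, Agxt and Aass passed in p53 f/f tumors, and Otc and Cbs in p53 f/+ tumors. Without healthy liver 1 the counts were 19 in p53 f/f tumors, against 18.5% of all genes, and 19 in p53 f/+ tumors, against 11.4%. The count of 6 in the p53 f/+ tumors moved with single arrays: 1 gene was left without the animal of tumor 13, or without healthy liver 7, 8 or 9. All 6 were still called with healthy liver 1 and tumor 13 both left out. The reason for these shifts was not tested.

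Between the genotypes themselves, 0 of 31 genes differed in either direction, against 0.138% of all genes called higher in p53 f/f tumors and 0.337% called lower. Hal had the largest difference, at -2.01 in p53 f/f relative to p53 f/+ tumors (adjusted p = 0.291), followed by Bckdhb at 1.22 (adjusted p = 0.272) and Cbs at 1.19 (adjusted p = 0.214). Chips D and E held tumors of both genotypes. On chip E Hal averaged 6.90 in p53 f/f tumors and 11.12 in p53 f/+ tumors (3 each), and on chip D 8.64 in 2 p53 f/f tumors and 8.35 in 3 p53 f/+ tumors. With p53 f/+ tumor 13 and healthy liver 1 left out, the difference of Cbs was 0.44, that of Bckdhb 1.21 and that of Hal -2.34.

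Among the arrays with a probe signal, chip G was the only bead chip with tumors and healthy livers side by side: p53 f/+ tumors 28 and 29, of 1 mouse, and healthy livers 1, 2 and 3. There, 22 of the 31 genes were lower in the tumors than in healthy livers 2 and 3, as were 50.2% of all genes, with a median difference of -0.53 for the 31. With healthy liver 1 included, 6 of the 31 were lower. Among the called genes Cbs, Aass and Kmo differed most on this chip, by -1.88, -1.40 and -1.32, while Ass1 and Arg1 differed by 0.12 and 0.33. A fit with chip as a term rests on these 5 arrays for the link between tumors and healthy livers. It ties the p53 f/f tumors to the healthy livers only through chips D and E, which held both genotypes. This fit called 0 of the 31 genes with or without healthy liver 1. The sign of the difference turned for most of the genes with healthy liver 1 and for 11 without it. Beyond that chip, chip and tissue state cannot be told apart.

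In the thymic arrays of the series, 13 of the 31 probes were detected on none of 9 T-ALL and 5 healthy thymus arrays. On all 5 healthy thymi 11 were detected, among them Fah, Hgd, Ass1 and Aldh4a1. The share of all probes detected was 4.56% on T-ALL 5, so a lack of detection there says little. It was 30.21 to 37.54% on the other T-ALL arrays and 37.16 to 40.27% on the healthy thymi.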

How the data were processed

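Per the labels, total RNA from 53 samples was hybridised as biotinylated cRNA to bead chips. The deposited table gives each probe's intensity, already background subtracted (values below 0 occur), beside a detection score, deposited as a fraction between 0 and 1 and read here as the complement of the detection p-value. The authors also deposited quantile-normalised log2 values, and the submitters' processing notes name limma. The table's 2 columns without a label were not used, and liver tumor 12 has log2 values only. For 38 liver arrays, intensities were normalised with neqc (limma 3.58.1, R 4.3.3, offset 16), and 21108 probes with a detection p-value under 0.05 on at least 5 arrays were kept. Of 45281 probes, 34885 had 1 gene symbol, 18 several and 10378 were not listed. Group means were fitted with limma (animal as a random block, correlation 0.186, statmod 1.5.0; eBayes with trend and robust), two-sided, with Benjamini-Hochberg adjustment over 11567 genes and a threshold of 0.05. The tumor mean weighted genotypes by number. Titles number tumors and livers alike, and the deviations of same-numbered samples correlated between -0.043 and 0.191, so the numbers were not taken as pairs. An "at least" fold sets the bright group's mean against the lowest signal of detected probes (mean 5.52). The number of arrays limits the precision, and p-values measure the spread between animals and livers as sampled. The fit was tested on simulated data. Members, lists and alternatives were chosen with earlier results of these data known. All 31 measured members are described, with up to 3 called genes of each other list, genes listed by name and Mad2l1.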

Additional observations from a re-analysis of the deposited data

Results flagged for a closer look

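Values were examined in 62 groups (31 genes in 8 p53 f/+ tumors and in 10 healthy livers). In 32 of them a value had a gap to the next that was large for the range of its group by Dixon's criterion. Chance gives about 1 in 20 for a single group. The genes share the same arrays, so the groups are not independent and the count cannot be set against that rate. The p53 f/+ tumor 13 was far below the other p53 f/+ tumors for 13 genes, with log2 intensities of Cps1 9.39, Hpd 4.93, Hgd 9.44, Kynu 4.85, Haao 7.68, Uroc1 8.72, Ftcd 7.80, Mat1a 8.79, Cbs 5.09, Agxt2 5.78, Gldc 7.80, Aldh4a1 9.90 and Upb1 7.39. Healthy liver 1 was far below the other livers for 17 genes, with Ass1 10.51, Arg1 12.13, Hpd 8.74, Hgd 8.79, Fah 11.68, Kynu 4.94, Haao 7.34, Uroc1 7.19, Amdhd1 6.42, Ftcd 8.86, Mat1a 12.66, Cbs 8.76, Agxt 6.00, Agxt2 5.61, Prodh 7.10, Aldh4a1 10.21 and Upb1 8.02. A single gene each stood out in the tumors of 1 further animal, where Tdo2 was high in p53 f/+ tumor 28 (5.68) and Bckdhb in p53 f/+ tumor 29 (8.00). Whether either array differs through its tissue, its RNA or its label was not tested.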

How the results depend on the processing

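In all tumors against healthy liver, 13 genes were lower and 0 higher. The count of lower genes was 6 with median scaling in place of quantile normalisation, under which the median of all genes was 0.229 (-0.008 otherwise), 0 with chip as a fixed effect, and 16 on the authors' log2 values. Of settings added after seeing the data, it was 22 without healthy liver 1 and p53 f/+ tumor 13, 26 without healthy livers 1 and 5, 15 with median scaling over the kept probes (median of all genes -0.247) and 0 with chip as a fixed effect and healthy liver 1 left out. In p53 f/f tumors the count was 10, against 5 (and 1 higher) with median scaling, 0 with chip as a fixed effect with or without healthy liver 1, 21 without healthy liver 1 and p53 f/+ tumor 13 and 22 without healthy livers 1 and 5. In p53 f/+ tumors it was 6, against 1 with median scaling, 3 without the detection filter, 3 with the tumors of an animal averaged, 3 with chip as a random block, 0 with chip as a fixed effect with or without healthy liver 1, 13 without healthy liver 1 and p53 f/+ tumor 13 and 23 without healthy livers 1 and 5. Leaving out 1 healthy liver or 1 tumor animal at a time, the count of lower genes was 8 (without healthy liver 6) to 22 (without healthy liver 1) in all tumors, 7 to 19 in p53 f/f tumors and 1 to 19 in p53 f/+ tumors, and that of higher genes was 0 to 1 in p53 f/f tumors; Gldc was then at -0.14 to 0.18 and Tdo2 at -0.16 to 0.04. The comparison between genotypes kept 0 calls in the members under the alternatives run. The causes of these shifts were not tested. The fit with chip rests on 5 arrays for the link between tumors and healthy livers, and on chips D and E for the p53 f/f tumors. Dim genes (Otc, Tdo2, Amt, Kmo) lie near the detection limit, as does Bhmt in some tumors.

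The title numbers do not pair the samples. A fit with them as a replicate block holds only the p53 f/f tumors numbered 1 to 10 and the healthy livers, with no p53 f/+ tumor. In it 7 genes were lower and 1 higher. Against the main difference of all tumors, the sign turned for Otc (0.00), Tdo2 (0.50), Uroc1 (0.08), Agxt2 (0.07), Gldc (0.03) and Amt (-0.05).

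With median scaling, these log2 differences changed sign: Nags 0.04, Tdo2 0.17, Agxt2 0.06 and Gldc 0.06 in all tumors. With chip as fixed effect, these log2 differences changed sign: Nags 1.26, Cps1 1.24, Otc 0.04, Ass1 1.53, Asl 2.11, Arg1 0.74, Hpd 1.12, Hgd 1.62, Fah 0.69, Kynu 0.76, Haao 1.48, Hal 1.23, Uroc1 1.84, Amdhd1 0.73, Ftcd 0.69, Mat1a 1.61, Gnmt 1.11, Bhmt 0.19, Cbs 0.22, Cth 1.25, Agxt 1.61, Agxt2 1.08, Gldc 1.11, Prodh 1.30, Aldh4a1 0.69, Aass 0.34, Upb1 1.72, Psat1 -0.96, Asns -3.09, Mthfd2 -0.48, Nr1h4 0.13, Aldh18a1 -0.91 and Shmt2 1.48 in all tumors, and Ass1 1.59, Arg1 0.72, Hpd 1.37, Amdhd1 0.66, Bhmt 0.22, Agxt 1.83, Prodh 1.52, Aldh4a1 0.82 and Aass 0.50 in p53 f/f tumors, and Bhmt 0.09, Prodh 0.76 and Aldh4a1 0.38 in p53 f/+ tumors. With chip as fixed effect, without healthy liver 1, these log2 differences changed sign: Nags 0.22, Ass1 0.28, Asl 1.37, Arg1 0.27, Hal 0.28, Uroc1 0.48, Mat1a 1.07, Cth 0.40, Gldc 0.90, Prodh 0.04, Upb1 0.08, Asns -2.71, Nr1h4 0.52 and Shmt2 0.36 in all tumors, and Ass1 0.34, Arg1 0.24 and Prodh 0.26 in p53 f/f tumors. With mean over kept probes of a gene, these log2 differences changed sign: Gldc 0.08 in all tumors. With chip as random block, these log2 differences changed sign: Gldc 0.01 in all tumors. With Xist detection as covariate, these log2 differences changed sign: Gldc 0.04 in all tumors. Without healthy liver 1 and p53 f/+ tumor 13, these log2 differences changed sign: Gldc 0.08 in all tumors. With median scaling over kept probes, these log2 differences changed sign: Amt -0.27 in all tumors. Without healthy livers 1 and 5, these log2 differences changed sign: Amt -0.06 in all tumors.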
